A study of Mus musculus with 24 samples.

Results

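Wild-type mouse aorta taken 2 months after a 2-week infusion of angiotensin II (Ang II) was compared with aorta of sham-infused wild-type mice at the same time. The comparison used 8 of the 24 libraries of the series, 4 in each group, picked by the treatment and time in their labels. Ang II or vehicle had been given under the skin by osmotic minipump, and RNA was made from homogenates of aorta. The other 16 libraries come from aortas taken 4 and 6 months after infusion. Those at 4 months are used here to ask whether the Ang II effect and the sham levels differed between the times. The title of the study names the receptor tyrosine kinase Axl, inflammation and hypertensive remodelling of the aorta. The sources used here do not give age, sex, strain or the stretch of aorta. The labels do not say whether replicates came from separate animals. The p-values therefore measure the spread between these samples alone, which may be technical.

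Ang II is the effector peptide of the renin-angiotensin system, and its infusion is a standard way to raise blood pressure in mice. The aortic wall is built of layers of contractile smooth muscle cells and elastic lamellae, lined by endothelium and wrapped in an adventitia of fibroblasts, fat, nerves and macrophages. Serum response factor and its partner myocardin drive contractile genes of smooth muscle through promoter elements called CArG boxes. NR4A receptors and AP-1 and EGR factors belong to the genes that cells switch on within minutes of a stimulus.

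Each library held 19380262 to 35130912 counts, and 7.72% to 14.28% of them were mitochondrial. Levels are in counts-per-million units (CPM) after TMM scaling of the libraries, and errors of log2 fold changes are standard errors (SE). Fold changes are Ang II over sham. A gene is called higher or lower where edgeR's quasi-likelihood test gave an adjusted p (Benjamini-Hochberg over all genes tested) under 0.05, and "rose" and "fell" are used of called genes. Libraries differed in tissue other than aortic wall. Airway epithelium transcripts summed to 11750 CPM in sham replicate 3 and to 3260 and 2177 CPM in Ang II replicates 1 and 2, against 219 to 1118 CPM in the other 5. Skeletal muscle transcripts were highest in Ang II replicate 3 (11280 CPM) and cardiac muscle transcripts in sham replicate 3 (8892 CPM). Fatty acid synthesis transcripts were highest in sham replicate 4 (56990 CPM), and whether this came from the amount of fat was not tested. The first principal component of the 8 libraries held 33.7% of the variance and did not separate the groups. The smooth muscle gene Acta2 was present, at 276 CPM or more in each library. It is itself among the genes called lower, so its level is no separate measure of the share of aortic wall. The fat cell gene Fabp4 was above Acta2 in each library, at 6431 to 7236 CPM in sham and 5503 to 10370 CPM in Ang II libraries. In bulk tissue, fewer cells of a type and less RNA per cell cannot be told apart.

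Of 16421 genes tested, 297 were called (1.81%). Ang II aortas were higher for 61 of them (0.371% of the genes tested) and lower for 236 (1.44%). The 4 Ang II libraries lay beyond the 4 sham libraries in all 297, and in 1286 of the 16421 genes (7.83%, of which 2.8% higher and 5.03% lower as shares of all genes). At least 2-fold changes were found for 39 of the higher and 153 of the lower genes, and at least 4-fold changes for 10 and 43. The median log2 fold change was 1.37 among the higher genes and -1.17 among the lower, and 0.01 over all genes tested. An unadjusted p under 0.05 was found for 1770 genes. Protein-coding genes made up 60 of the 61 higher and 233 of the 236 lower genes.

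**Figure D1:**
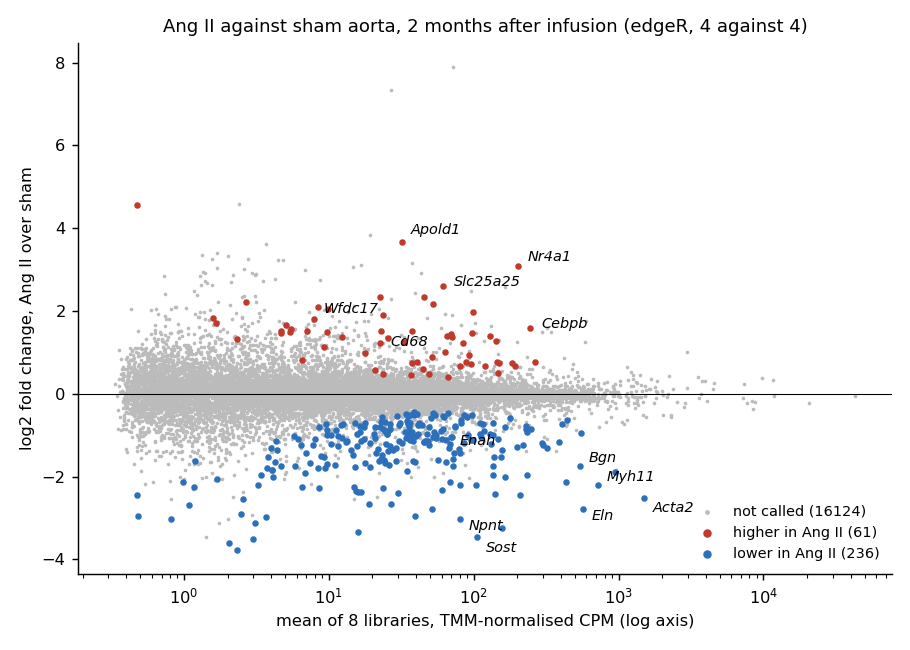
Mean level over the 8 libraries (x axis, CPM, log scale) against the log2 fold change of Ang II over sham (y axis) for 16421 genes, red for the 61 called higher and blue for the 236 called lower. Among the labelled genes Apold1 (3.68) and Nr4a1 (3.09) lie highest, and Sost (-3.46) and Npnt (-3.03) lowest.

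The number of calls depended on single libraries. It was 78 without sham replicate 1, 135 without Ang II replicate 2 and 103 without Ang II replicate 3 or 4, and it was 227 to 255 under the other 4 omissions. Without the 3 libraries highest in airway transcripts (sham replicate 3 and Ang II replicates 1 and 2) it was 119. That fit leaves Ang II replicates 3 and 4 alone in their group. For calls lost in it, here and below, fewer libraries and the tissue removed cannot be told apart. The 297 genes kept their sign in each of the 16 other settings tried (8 omissions of a library and 8 other tools, filters or library choices). Called whichever library was left out were 73 genes, 12 higher and 61 lower. Called in all 16 settings were 44, 6 higher and 38 lower. The 6 were Apold1, Nr4a1, Slc25a25, Cebpb, Hcar1 and Klhl25, and the 38 included Npnt, Itga9, Itga5, Itga3, Actn1, Flna, Smtn, Lmod1, Bgn, Ltbp1, Col4a5, Pde3a, Pde5a and Enah. Within groups the libraries also kept an order over many of the lower genes. Sham replicate 4 was the highest sham library in 149 of the 236 and sham replicate 3 the lowest in 156, while Ang II replicate 1 was the highest Ang II library in 143.

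Contractile smooth muscle genes were the list with the most falls. Of 28 tested, 16 fell and 0 rose, and the median log2 fold change of the list was -1.23, against 0.01 over all genes. Over all genes tested 1.44% fell and 0.371% rose, the shares to set beside the counts of each list below. Acta2 encodes smooth muscle alpha-actin, the main thin-filament protein of these cells (ENSMUSG00000035783.8, chromosome 19, 34241090 to 34255336, minus strand, build mm10). Replicates 1 to 4 of the sham group measured 2665, 1945, 1568 and 3995 CPM, and those of the Ang II group 823.9, 368.3, 276.1 and 311.8 CPM, an order kept below. The highest Ang II library, replicate 1, lay below the lowest sham library, replicate 3. The log2 fold change was -2.51 (SE 0.433, edgeR adjusted p = 0.0251). Myh11, the smooth muscle myosin heavy chain (ENSMUSG00000018830.8, chromosome 16, 14194527 to 14291408), measured 1460, 1143, 892 and 1242 CPM in sham and 452, 269, 152 and 155 CPM in Ang II replicates. It fell by 2.20 on the log2 scale (SE 0.368, edgeR adjusted p = 0.0232), again with replicate 1 highest among the Ang II libraries.

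The members of this list with the smallest p were Smtn, Actn1, Lmod1 and Ppp1r12b, genes of the actin and myosin machinery. Smtn, the actin-binding protein smoothelin, measured 265, 211, 179 and 265 CPM in sham and 96.98, 71.1, 76.6 and 74.5 CPM in Ang II replicates (log2 fold change -1.53, SE 0.162, edgeR adjusted p = 0.00589). Actn1, the actin cross-linker alpha-actinin, measured 289, 249.0, 195 and 317 CPM in sham and 87.2, 69.3, 46.5 and 58.9 CPM in Ang II replicates (log2 fold change -2.0, SE 0.221, edgeR adjusted p = 0.00646). Lmod1, which nucleates actin filaments in smooth muscle, changed by -1.95 and Ppp1r12b, a subunit of myosin phosphatase, by -1.21 (edgeR adjusted p = 0.00820 and 0.00897). Both groups were separate for each of these genes. Further falls in the list were Cnn1 (calponin), Myl9 (myosin light chain), Tagln (transgelin) and the SRF coactivator gene Myocd, at -2.44, -2.12, -1.91 and -1.85, with edgeR adjusted p of 0.0224, 0.0147, 0.0197 and 0.0289. Tagln was counted at 7.26 to 15.3 CPM in sham and 2.05 to 3.72 CPM in Ang II libraries, far below Cnn1, at 265 to 451 CPM in sham. Tagln lies across exons of opposite-strand genes, and since the strand setting of the counting is not given, its reads and theirs cannot be told apart.

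Members that did not pass included genes that striated muscle also uses. Tpm1, Tpm2, Des and Ldb3 had log2 fold changes of -0.36, -0.59, 0.36 and -0.15 (edgeR adjusted p from 0.757 for Tpm2 to 0.964 for Ldb3). Tpm2 measured 803 CPM in Ang II replicate 3, above every sham library, and Des 737 CPM there. In the same library, transcripts of a skeletal muscle list summed to 11280 CPM, against 312 to 4581 CPM in the other Ang II and 574 to 4349 CPM in the sham libraries. Their part in these values was not tested. Srf itself, the serum response factor, had a log2 fold change of 0.51 (SE 0.121, edgeR adjusted p = 0.0905), with all 4 Ang II libraries, at 97.4 to 122 CPM, above the sham libraries, at 60.4 to 81.0 CPM.

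The summed level of the contractile list was 11950, 9943, 9037 and 14160 CPM in sham and 4753, 3998, 5336 and 3578 CPM in Ang II replicates, with no overlap. Of its 16 calls, 6 held whichever library was left out (Actn1, Flna, Lmod1, Pgm5, Ppp1r12b and Smtn), and 6 to 16 genes of the list were called under each omission, 6 of them without sham replicate 1 or without Ang II replicate 2 or 4 and 8 without Ang II replicate 3. The count was 10 without the 3 libraries highest in airway transcripts. Acta2, Myh11 and Cnn1 were not called without sham replicate 1 or 4 or without Ang II replicate 2, 3 or 4, where their edgeR adjusted p reached 0.0964, 0.0878 and 0.0862.

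The promoters of the genes that fell and rose were read for known elements in the 250 bases before each RefSeq gene start, since both groups hold genes known to share a control element. Acta2 is shown because CArG elements of this stretch are textbook targets of serum response factor, and Myl9 because it holds a full CArG box. Capitals mark the 2 stretches of Acta2 that differ from a CArG box by 1 base each and the CArG box of Myl9. Sequences are from RefSeq on GRCm38.p6, written 5′ to 3′ on the strand of the gene, at chr19:34255374-34255623 (minus strand) for Acta2 and chr2:156775214-156775463 (plus strand) for Myl9.
Acta2: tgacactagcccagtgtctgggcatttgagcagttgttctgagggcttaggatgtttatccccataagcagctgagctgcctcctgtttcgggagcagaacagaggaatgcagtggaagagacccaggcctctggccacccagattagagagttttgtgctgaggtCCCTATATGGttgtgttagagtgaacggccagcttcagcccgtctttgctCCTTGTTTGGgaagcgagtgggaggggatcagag
Myl9: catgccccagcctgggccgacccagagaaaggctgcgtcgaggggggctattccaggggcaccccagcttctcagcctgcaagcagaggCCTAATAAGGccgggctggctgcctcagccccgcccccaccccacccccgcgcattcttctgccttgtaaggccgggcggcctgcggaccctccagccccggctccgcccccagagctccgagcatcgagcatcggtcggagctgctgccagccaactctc
The Acta2 stretches begin 84 and 34 bases before the start, and the Myl9 box 161 bases before it. A full CArG box, searched on both strands, was found for 4 of 24 contractile genes with a promoter in the table (16.7%). It was found for 4 of 179 genes called lower (2.23%), 0 of 46 called higher (0%) and 192 of 12090 genes tested (1.59%). A stretch that differs from it by 1 base occurred in 19.9% of all 32851 windows of this length, and 3.38% held at least 2. A match is a description of the letters in this window and no measure of binding.

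Among 22 elastic fibre genes tested, 6 fell and 0 rose (median log2 fold change -0.59). Eln, which encodes tropoelastin, the precursor of elastin (ENSMUSG00000029675.12, chromosome 5, 134702593 to 134747323, minus strand), measured 1112, 804, 539 and 1514 CPM in sham and 246, 123, 87.7 and 117 CPM in Ang II replicates. The lowest sham value was above the highest Ang II value, and the log2 fold change was -2.79 (SE 0.414, edgeR adjusted p = 0.0152). Mfap4, a glycoprotein that binds elastic microfibrils, measured 108, 101, 77.4 and 117 CPM in sham and 30.1, 22.6, 12.9 and 14.95 CPM in Ang II replicates (log2 fold change -2.32, SE 0.274, edgeR adjusted p = 0.00820). Exons of Mfap4 overlap those of Mapk7 on the other strand. Ltbp1 and Ltbp4, which tether latent TGF-beta to the matrix, were at -1.73 and -0.73 (edgeR adjusted p = 0.00820 and 0.0248), and Fbln5, which guides elastin assembly, by -1.18 (edgeR adjusted p = 0.0274). Fbn1, the main fibrillin of microfibrils, did not pass, with 61.3 to 98.4 CPM in sham and 61.5 to 73.2 CPM in Ang II libraries (log2 fold change -0.25, SE 0.147, edgeR adjusted p = 0.656). For Eln the call was lost without sham replicate 1 or without Ang II replicate 2, 3 or 4 (edgeR adjusted p up to 0.0711). Ltbp1 and Mfap4 were called under each omission, and 2 to 7 members of the list were called each time, 2 of them without sham replicate 1 or without Ang II replicate 2, 3 or 4. The count was 5 without the 3 libraries highest in airway transcripts.

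**Figure D2:**
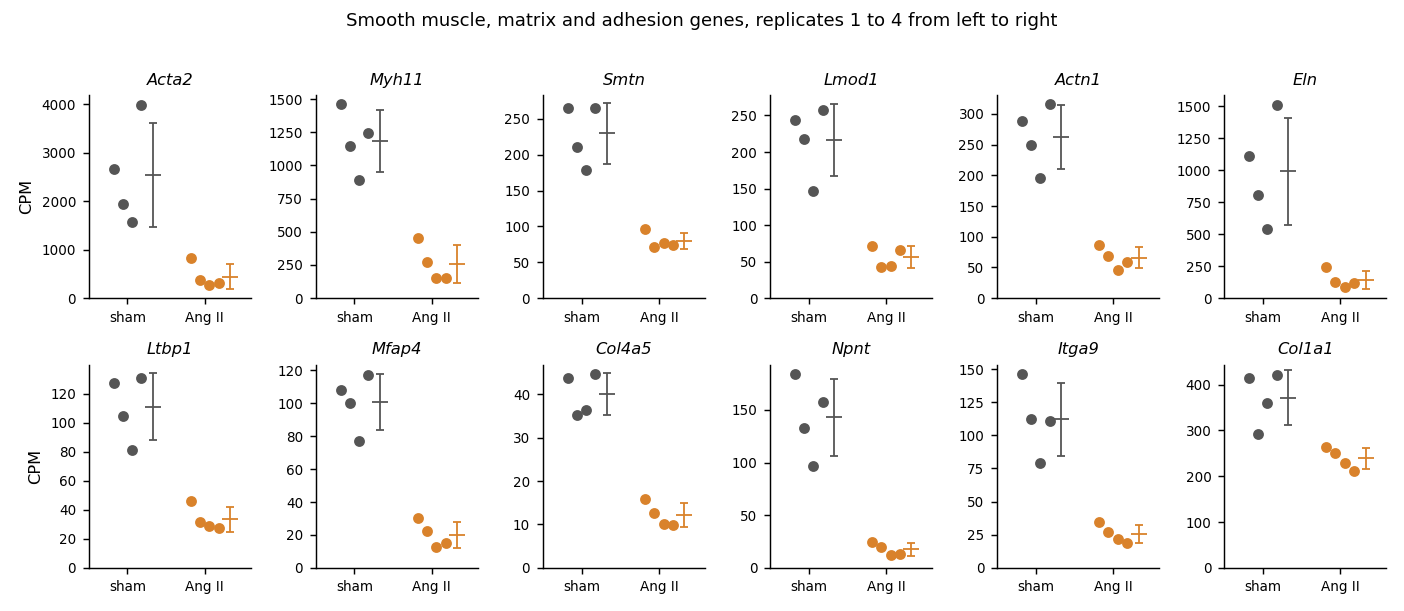
Levels in CPM (y axes, from 0) of 12 smooth muscle, matrix and adhesion genes in sham (grey) and Ang II (orange) libraries, replicates 1 to 4 from left to right, with the group mean and SD (n = 4) beside them. The groups do not overlap in any of the 12, although Col1a1 was not called (edgeR adjusted p = 0.0685), and Ang II replicate 1 is the highest Ang II library in each panel.

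Among 21 collagen genes tested, 5 fell and 0 rose (median -0.38). The largest falls were in basement membrane and associated collagens. Col4a5 (ENSMUSG00000031274.16, chromosome X, 141475385 to 141689234) measured 43.8, 35.2, 36.4 and 44.6 CPM in sham and 15.8, 12.5, 10.2 and 9.88 CPM in Ang II replicates (log2 fold change -1.72, SE 0.169, edgeR adjusted p = 0.00470). Its neighbour on the opposite strand of chromosome X, Col4a6, changed by -1.67, and Col18a1, which gives rise to endostatin, by -1.95 (edgeR adjusted p = 0.00963 and 0.0118). Col4a1 and Col4a2, the widespread chains of type IV collagen, did not pass, at -0.23 and -0.37 (edgeR adjusted p = 0.753 and 0.382). Among fibrillar collagens Col1a2 fell, from 462 to 614 CPM in sham to 335 to 362 CPM in Ang II libraries (log2 fold change -0.63, SE 0.114, edgeR adjusted p = 0.0292), a call lost under all omissions but that of sham replicate 2 (edgeR adjusted p up to 0.118). Col3a1 measured 398 to 616 CPM in sham and 395 to 520 CPM in Ang II libraries and did not pass (-0.14, SE 0.164, edgeR adjusted p = 0.878). Without sham replicate 1 or Ang II replicate 3 or 4, 2 members were called, and 3 without sham replicate 3, without Ang II replicate 1 or 2, and without the 3 libraries highest in airway transcripts.

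Of 22 proteoglycans and matricellular proteins, 7 fell and 0 rose (median -0.38). Bgn, the small proteoglycan biglycan (ENSMUSG00000031375.17, chromosome X, 73483602 to 73495933), measured 891, 756, 568 and 1113 CPM in sham and 318, 222, 223 and 245 CPM in Ang II replicates (log2 fold change -1.73, SE 0.221, edgeR adjusted p = 0.00955). Its relative Dcn, decorin, a product mainly of adventitial fibroblasts, did not pass (0.11, SE 0.241, edgeR adjusted p = 0.946). Vcan (versican) and Postn (periostin) changed by -1.14 and -1.29 (edgeR adjusted p = 0.00646 and 0.0118). Nov, Ctgf and Wisp2, members of the CCN family of matricellular proteins, changed by -2.21, -1.73 and -2.65 (edgeR adjusted p = 0.0180, 0.0311 and 0.0218). Another CCN gene, Cyr61, went the other way without passing: it measured 440 and 122 CPM in Ang II replicates 1 and 2 and 46.2 to 86.3 CPM in the other 6 libraries. Bgn and Vcan were called under each omission of a library, 2 members in all without Ang II replicate 2 or 3 and 3 without sham replicate 1 or Ang II replicate 4. The count was 5 without the 3 libraries highest in airway transcripts.

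Integrins and their matrix ligands held the largest falls of all matrix lists. Of 26 tested, 9 fell and 0 rose, while the median was -0.14, so the falls were confined to 9 named members: Itga3, Itga5, Itga8, Itga9, Itgb3, Itgb5, Lama5, Lamb2 and Npnt. Npnt, nephronectin (ENSMUSG00000040998.18, chromosome 3, 132881745 to 132950291, minus strand), measured 184, 133, 97.2 and 158 CPM in sham and 24.3, 20.1, 12.5 and 12.8 CPM in Ang II replicates (log2 fold change -3.03, SE 0.283, edgeR adjusted p = 0.00470). Itga8, the alpha chain of the integrin that nephronectin binds, measured 352, 283, 180 and 325 CPM in sham and 57.8, 25.6, 16.9 and 20.2 CPM in Ang II replicates (log2 fold change -3.24, SE 0.421, edgeR adjusted p = 0.00963). Both groups were separate by a wide margin for ligand and receptor. Itga9 and Itga5 changed by -2.13 and -1.57 (edgeR adjusted p = 0.00646 and 0.00820). Itga1, Itga7 and Itgav, other alpha chains found on smooth muscle, had values of -0.11, -0.15 and -0.23 and did not pass (edgeR adjusted p from 0.360 for Itgav to 0.885 for Itga1). Under each omission of a library 5 to 9 members were called, and Itga3, Itga5, Itga8, Itga9 and Npnt were called under all 8. The 5-member counts came without sham replicate 1 or Ang II replicate 3 or 4, and 6 were called without Ang II replicate 2 and without the 3 libraries highest in airway transcripts.

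The lower genes with the smallest p were mostly outside these lists. Enah, an actin-filament elongation factor (ENSMUSG00000022995.16, chromosome 1, 181896384 to 182019990, minus strand), measured 109, 87.4, 91.2 and 96.2 CPM in sham and 39.6, 38.9, 35.4 and 41.1 CPM in Ang II replicates (log2 fold change -1.31, SE 0.0961, edgeR adjusted p = 0.00286). Tspan2, a tetraspanin, measured 44.7 to 54.2 CPM in sham and 21.9 to 24.01 CPM in Ang II libraries (log2 fold change -1.11, SE 0.0908, edgeR adjusted p = 0.00286). These 2 genes had a narrow range in each group, with a gap between the groups wider than either range. Pcdh7 (a protocadherin), Ptprz1 (a receptor phosphatase), Phldb2 (a microtubule anchor at adhesions) and Adam11 (a catalytically inactive ADAM protein) changed by -1.60, -1.76, -0.96 and -1.34. Cpe (carboxypeptidase E), Mical2 (an actin-oxidising enzyme), Bcam (a laminin receptor) and Synpo (synaptopodin, an actin-binding protein) changed by -1.31, -1.24, -0.86 and -1.33. The edgeR adjusted p of these 8 lay between 0.00286 and 0.00555. Bcam and Synpo were not called without the 3 libraries highest in airway transcripts (edgeR adjusted p = 0.0661 and 0.0511).

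Signalling genes were called in small numbers. Of 30 TGF-beta and BMP pathway genes 3 fell and 0 rose (median -0.21). They were the activin antagonist Fstl3, the activin subunit Inhba and the ligand Tgfb2, at -2.26, -1.71 and -1.16 (edgeR adjusted p = 0.00897, 0.0231 and 0.0136). Tgfb1, Tgfbr1 and Tgfbr2, the other main ligand and both receptors, had values of 0.23, -0.35 and -0.10 and did not pass (edgeR adjusted p = 0.762, 0.440 and 0.948). In 11 of these 30 genes every Ang II library lay below every sham library, and in 0 above. Over all genes tested the shares were 5.03% and 2.8%. Of 26 Wnt genes 3 fell (median -0.03): the secreted antagonists Wif1 and Sost and the ligand Wnt16, at -3.77, -3.46 and -2.89 (edgeR adjusted p = 0.0258, 0.0248 and 0.0391). Sost measured 209, 148, 110 and 310 CPM in sham and 38.8, 15.8, 7.202 and 8.517 CPM in Ang II replicates. Wif1 was low in both groups, at 3.29 to 5.52 CPM in sham and 0 to 0.458 CPM in Ang II libraries. The Notch target genes Hey2 and Heyl changed by -1.06 and -0.96 (edgeR adjusted p = 0.0241 and 0.0444), and 0 other members of 17 were called. Fstl3 was called under each omission of a library, 1 TGF-beta and BMP gene in all without sham replicate 1 or Ang II replicate 3 and 5 without sham replicate 3. The calls of the Wnt and Notch genes were each lost under 5 or more of the 8 omissions (edgeR adjusted p up to 0.159, for Heyl), and 0 to 2 members of each list were called each time.

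Of 17 genes of nitric oxide and cGMP signalling, the relaxing pathway of smooth muscle, 4 fell and 0 rose (median -0.20). Pde3a and Pde5a, phosphodiesterases that degrade cyclic nucleotides, measured 54.0 to 71.5 and 28.8 to 37.7 CPM in sham and 23.4 to 31.0 and 14.3 to 19.2 CPM in Ang II libraries. They changed by -1.17 (SE 0.125) and -0.97 (SE 0.121), with edgeR adjusted p of 0.00589 and 0.00889. Mrvi1, the substrate of cGMP kinase at calcium stores, and Gucy1b3, the beta subunit of soluble guanylate cyclase, changed by -1.64 and -0.81 (edgeR adjusted p = 0.00714 and 0.0280). Nos3, the endothelial nitric oxide synthase, did not pass (-0.17, SE 0.122, edgeR adjusted p = 0.756). Mrvi1, Pde3a and Pde5a were called under each omission of a library and without the 3 libraries highest in airway transcripts, and Gucy1b3 under that of sham replicate 3 alone. Among 26 receptors that set vascular tone, Ramp1, a subunit of the CGRP receptor, Htr1b, a serotonin receptor, and Rgs5, a brake on G protein signals, changed by -1.22, -2.97 and -0.95 (edgeR adjusted p = 0.00820, 0.0118 and 0.0442). Agtr1a, the main receptor of Ang II, measured 19.2 to 21.6 CPM in sham and 18.3 to 31.3 CPM in Ang II libraries and did not pass (0.25, SE 0.183, edgeR adjusted p = 0.758). Of 30 ion channel genes, Kcnmb1, the smooth muscle subunit of the large-conductance calcium-activated potassium channel, was called (-2.65, SE 0.398, edgeR adjusted p = 0.0159). Nox4, the constitutively active NADPH oxidase, fell by 2.27 on the log2 scale (SE 0.314, edgeR adjusted p = 0.0118) and was the 1 call among 16 oxidant and antioxidant genes. Ramp1 was called under each omission, Htr1b was lost without sham replicate 1 (edgeR adjusted p = 0.0547), Rgs5 under all but that of sham replicate 3 (up to 0.133), Kcnmb1 without sham replicate 1 or Ang II replicate 2 or 3 (up to 0.0639) and Nox4 without sham replicate 1 or Ang II replicate 4 (up to 0.0543). Ramp1, Htr1b and Rgs5 were also lost without the 3 libraries highest in airway transcripts (edgeR adjusted p = 0.0532 and 0.0570 for the first pair and 0.147 for Rgs5).

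**Figure D3:**
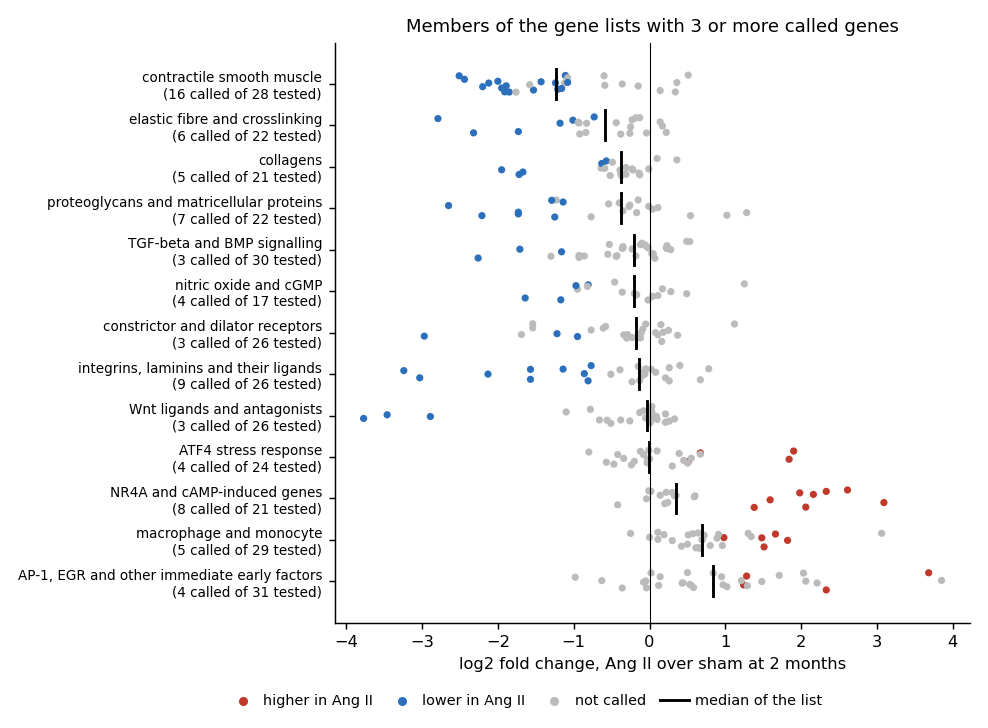
Log2 fold changes of Ang II over sham at 2 months (x axis) for the tested members of the 13 gene lists with 3 or more called genes (rows). Blue points were called lower, red points higher and grey points were not called, and black bars mark the median of each list, from -1.23 for contractile smooth muscle to 0.84 for AP-1, EGR and other immediate early factors.

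Some of the genes that cells induce rapidly rose. Of 21 NR4A and cAMP-induced genes 8 rose and 0 fell (0.371% of all genes tested were called higher), with a median of 0.35. Nr4a1, an orphan nuclear receptor (ENSMUSG00000023034.6, chromosome 15, 101266846 to 101274792, plus strand), measured 43.3, 60.2, 37.4 and 29.1 CPM in sham and 510, 500, 228 and 214 CPM in Ang II replicates. Replicates 1 and 2 were above replicates 3 and 4, and the lowest of them was above every sham library. The log2 fold change was 3.09 (SE 0.373, edgeR adjusted p = 0.00820). Slc25a25, a mitochondrial ATP-Mg carrier, was also higher in Ang II replicates 1 and 2 than in 3 and 4, at 14.2, 20.4, 15.38 and 19.03 CPM in sham and 113, 172, 61.6 and 75.2 CPM in Ang II replicates (log2 fold change 2.61, SE 0.321, edgeR adjusted p = 0.00820). Cebpb, a bZIP transcription factor (ENSMUSG00000056501.3, chromosome 2, 167688915 to 167690418), measured 119, 124, 115 and 132 CPM in sham and 338, 343, 353 and 439 CPM in Ang II replicates. It had the smallest p of all genes tested (log2 fold change 1.59, SE 0.114, edgeR adjusted p = 0.00286), and its exons overlap those of Tmem189 on the other strand. Nr4a2, Sik1, Irs2, Irf4 and Arc rose by 1.38, 2.16, 1.98, 2.33 and 2.06 (edgeR adjusted p from 0.0255 for Nr4a2 to 0.0487 for Arc). Calls of Cebpb, Nr4a1 and Slc25a25 held under each omission of a library, and 3 to 5 members were called each time (3 without sham replicate 1, 2 or 3 or Ang II replicate 2, and 4 without Ang II replicate 4). The count was 4 without the 3 libraries highest in airway transcripts.

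The start-site stretches of Nr4a1 and Slc25a25 are shown because these 2 genes kept their calls in every setting and hold elements of the kind that cAMP-responsive factors bind. Capitals mark TGCGTCA in Nr4a1 and TGACGTCA in Slc25a25, and both are from RefSeq on GRCm38.p6, at chr15:101266596-101266845 (plus strand) and chr2:32424067-32424316 (minus strand). The Slc25a25 window precedes a RefSeq start that lies inside the gene, which spans 32414487 to 32451445 on the minus strand. It is therefore not the stretch before the outermost start of that gene.
Nr4a1: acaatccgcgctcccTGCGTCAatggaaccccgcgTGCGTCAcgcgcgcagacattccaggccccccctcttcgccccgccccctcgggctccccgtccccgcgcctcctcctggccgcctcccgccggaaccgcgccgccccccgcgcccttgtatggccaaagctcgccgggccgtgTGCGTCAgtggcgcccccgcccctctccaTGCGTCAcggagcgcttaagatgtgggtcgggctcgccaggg
Slc25a25: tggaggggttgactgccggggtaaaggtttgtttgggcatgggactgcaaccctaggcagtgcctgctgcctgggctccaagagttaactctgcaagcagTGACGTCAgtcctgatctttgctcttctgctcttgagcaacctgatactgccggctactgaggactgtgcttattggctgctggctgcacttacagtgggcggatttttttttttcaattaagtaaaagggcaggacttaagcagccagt
The 4 copies of TGCGTCA in Nr4a1 begin 235, 215, 71 and 42 bases before the start. This motif was chosen after the sequence was read, and of 32851 windows of this length it is the 1 window (0.00304%) with 4 or more copies. TGCGTCA on either strand was found for 3 of 46 higher genes (6.52%), 3 of 179 lower genes (1.68%) and 3.94% of the genes tested. TGACGTCA was found for 3 of 46 (6.52%), 4 of 179 (2.23%) and 3.37%, and the AP-1 element TGANTCA for 5 of 46 (10.9%), 15 of 179 (8.38%) and 6.78%. The shares rest on few genes and no test of them was made.

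Of 31 AP-1, EGR and other immediate early factors, 4 rose and 0 fell (median 0.84). Apold1, known to be induced in endothelium by injury (ENSMUSG00000090698.2, chromosome 6, 134981718 to 134986836), measured 4.19, 5.99, 3.46 and 4.96 CPM in sham and 97.99, 59.95, 34.4 and 46.2 CPM in Ang II replicates (log2 fold change 3.68, SE 0.347, edgeR adjusted p = 0.00470). Its lowest Ang II value was above every sham value, with replicate 1 highest. Klf2 and Klf4, zinc finger factors that respond to blood flow, rose by 1.28 and 1.24, and Atf3, a stress-induced bZIP factor, by 2.33 (edgeR adjusted p = 0.0106, 0.0161 and 0.0110). Fos and Egr1, the best known members, did not pass (edgeR adjusted p = 0.488 and 0.629). Fos measured 3.05, 12.2, 5.85 and 13.1 CPM in sham and 108.9, 19.9, 7.62 and 6.13 CPM in Ang II replicates, and Egr1 26.4 to 92.8 CPM in sham and 476, 101.5, 20.03 and 26.61 CPM in Ang II replicates. For both, replicate 1 alone stood far above the rest, and replicates 3 and 4 lay within or below the sham range. Egr1, Fos, Jun, Junb, Ier2, Btg2 and Cyr61 were each highest in Ang II replicate 1 of the 8 libraries. That library was also second highest of the 8 in summed airway epithelium transcripts, at 3260 CPM, whose part in these values was not tested. Without the 3 libraries highest in airway transcripts the median of the list was 0.04, 2 members were called, and Fos and Egr1 had log2 fold changes of -0.47 and -1.21. Apold1, Atf3 and Klf2 were called under each omission of a single library. Klf4 was lost without sham replicate 1 or Ang II replicate 3 (edgeR adjusted p up to 0.0774). Atf3 and Klf2 were lost without the 3 libraries highest in airway transcripts (edgeR adjusted p up to 0.0661). Klf2 was also lost in a fit of the 16 libraries at 2 and 4 months.

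**Figure D4:**
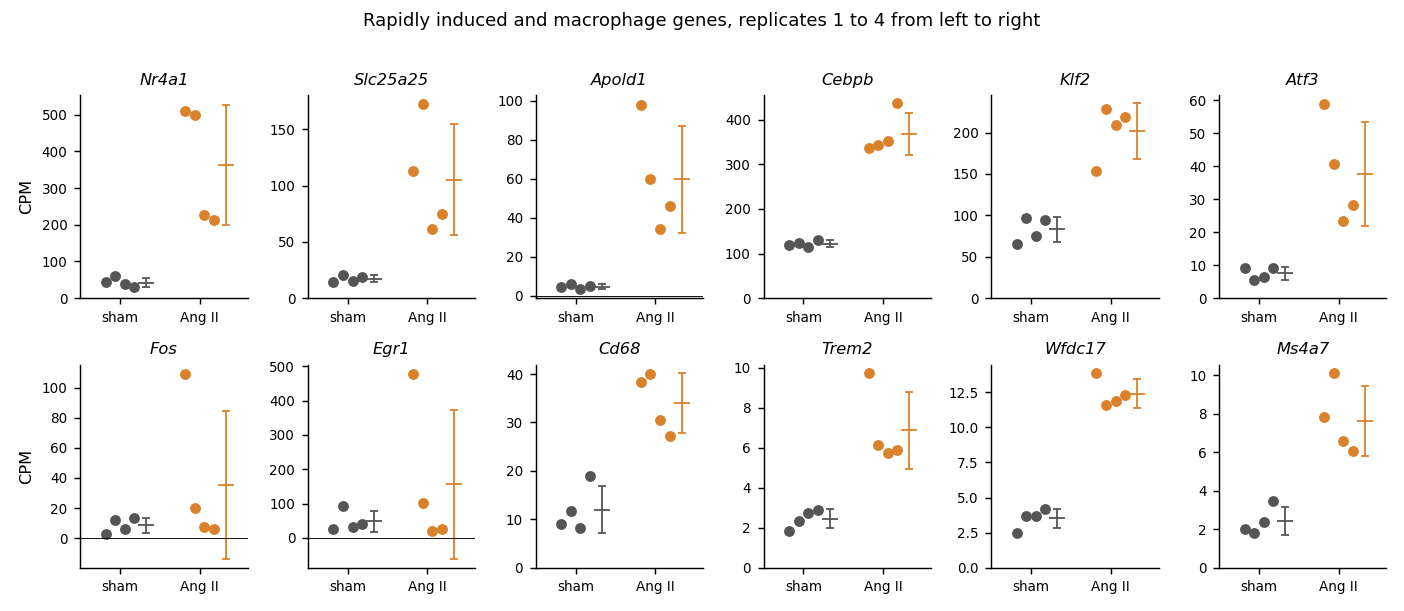
Levels in CPM (y axes) of 12 rapidly induced and macrophage genes in sham (grey) and Ang II (orange) libraries, replicates 1 to 4 from left to right, with the group mean and SD (n = 4). The groups are separate for the 10 called genes, while Fos and Egr1 are high in Ang II replicate 1, at 108.9 and 476.4 CPM, and overlap with sham in replicates 3 and 4.

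Of 24 genes of the ATF4 stress response 4 rose and 0 fell, with a median of -0.01. They were the sestrin Sesn2, the secreted stress factor Gdf15, the alanine aminotransferase Gpt2 and Atf4 itself, at 1.90, 1.84, 0.67 and 0.51 (edgeR adjusted p = 0.0154, 0.0248, 0.0310 and 0.0480). Sesn2 measured 14.2, 9.58, 9.78 and 6.16 CPM in sham and 22.8, 44.2, 39.7 and 41.2 CPM in Ang II replicates. Ddit3 and Asns, other known targets of ATF4, had values of -0.80 and 0.10 and did not pass (edgeR adjusted p = 0.252 and 0.939). Under the omission of single libraries 0 to 2 of the 4 were called (0 without Ang II replicate 2 or 4), and without the 3 libraries highest in airway transcripts 0.

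The higher genes with the smallest p included Hcar1, the lactate receptor of adipocytes (ENSMUSG00000049241.5, chromosome 5, 123876736 to 123880020, minus strand). It measured 54.0, 58.2, 50.7 and 42.98 CPM in sham and 162, 135, 127 and 150 CPM in Ang II replicates (log2 fold change 1.48, SE 0.123, edgeR adjusted p = 0.00286). Cldn5, the claudin of endothelial tight junctions, measured 84.2, 56.8, 69.1 and 72.4 CPM in sham and 227, 168, 146 and 207 CPM in Ang II replicates (log2 fold change 1.40, SE 0.172, edgeR adjusted p = 0.00820). It was the 1 call among 25 endothelial genes, whose median was -0.11 and whose summed level, at 3318 to 4080 CPM in sham and 3077 to 4074 CPM in Ang II libraries, overlapped between groups. Cldn5 was called under each omission of a single library and not without the 3 libraries highest in airway transcripts (edgeR adjusted p = 0.086). Klhl25 (a ubiquitin ligase adaptor), Sgk1 (a kinase induced by serum and glucocorticoids), Enc1 (an actin-binding kelch protein) and Ppp1r15b (a regulator of eIF2 phosphatase) rose by 1.36, 1.37, 0.76 and 0.76 (edgeR adjusted p from 0.00820 to 0.00989). Sgk1, Enc1 and Ppp1r15b were not called without the 3 libraries highest in airway transcripts (edgeR adjusted p = 0.0578, 0.0662 and 0.149), nor Ppp1r15b without sham replicate 1 (0.0520).

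Some macrophage genes rose in Ang II aortas. Of 29 macrophage and monocyte genes 5 rose and 0 fell, and 28 had a log2 fold change above 0 (median 0.69). Over all genes tested 0.371% rose, and 8492 of 16421 had a log2 fold change above 0. Cd68, found on macrophage lysosomes (ENSMUSG00000018774.13, chromosome 11, 69664213 to 69666153, minus strand), measured 9.11, 11.6, 8.29 and 18.9 CPM in sham and 38.3, 40.1, 30.6 and 27.1 CPM in Ang II replicates (log2 fold change 1.51, SE 0.266, edgeR adjusted p = 0.0280). Wfdc17, a secreted protein of activated macrophages (ENSMUSG00000069792.5, chromosome 11, 83703991 to 83706268), measured 2.50, 3.72, 3.67 and 4.16 CPM in sham and 13.9, 11.6, 11.9 and 12.3 CPM in Ang II replicates (log2 fold change 1.82, SE 0.185, edgeR adjusted p = 0.00538). Both genes had separate groups, and the 4 Ang II values of Wfdc17 were close together. Trem2, a lipid-sensing receptor, Ms4a7, a membrane-spanning protein of tissue macrophages, and Adgre1, the F4/80 antigen, rose by 1.48, 1.66 and 0.98 (edgeR adjusted p = 0.0240, 0.0210 and 0.0202). The complement genes C1qa, C1qb and C1qc had values of 0.69 to 0.72, with all 4 Ang II libraries above every sham library, and did not pass (edgeR adjusted p = 0.0633, 0.0934 and 0.0748). Ccr2, Ly6c2 and Cx3cr1, markers of monocytes and of a resident subset, had values of 0.11, 0.64 and 0.30 and did not pass (edgeR adjusted p = 0.937, 0.882 and 0.781). Nor did Cd163, Lyve1 and Folr2, markers of resident adventitial macrophages, at 0.00, -0.25 and 0.50. Cd68 was called under 1 omission, that of sham replicate 4 (edgeR adjusted p up to 0.112 under the others), and Wfdc17 was called under all 8, and 1 to 8 members of the list were called each time, 1 without sham replicate 1 or Ang II replicate 3, 2 without Ang II replicate 2 or 4 and 8 without sham replicate 4. Without the 3 libraries highest in airway transcripts 0 members were called and the median was 0.47.

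Of 20 cytokines and chemokines 1 was called, Ccl8, a chemokine that draws monocytes, at 1.40 to 4.91 CPM in sham and 8.15 to 17.1 CPM in Ang II libraries (log2 fold change 2.11, SE 0.381, edgeR adjusted p = 0.0297). Its call was lost without sham replicate 1 or 2, without Ang II replicate 2, 3 or 4, and without the 3 libraries highest in airway transcripts (edgeR adjusted p up to 0.121). Lymphocyte lists had 0 calls. B and plasma cell genes had a median of 1.42 and summed to 397, 1709, 417 and 1027 CPM in sham and 1321, 3420, 2197 and 813 CPM in Ang II replicates, so the groups overlapped. T and NK cell genes summed to 22.6, 244, 21.5 and 14.5 CPM in sham and 49.5, 223, 98.0 and 28.7 CPM in Ang II replicates. In both lists sham replicate 2 and Ang II replicate 2 were the highest of their groups.

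Of the TAM receptors, which bind apoptotic cells through bridging ligands, and those ligands, 1 of 5 was called. Mertk (ENSMUSG00000014361.5, chromosome 2, 128698956 to 128802894, plus strand) measured 45.1, 41.3, 32.0 and 34.0 CPM in sham and 23.9, 25.2, 18.8 and 23.0 CPM in Ang II replicates (log2 fold change -0.74, SE 0.139, edgeR adjusted p = 0.0346). Its call was lost under all omissions of a library but that of sham replicate 3 (edgeR adjusted p up to 0.120). The call was also lost without the 3 libraries highest in airway transcripts and in a fit of the 16 libraries at 2 and 4 months. Axl, the receptor the study is about (ENSMUSG00000002602.16, chromosome 7, 25757273 to 25788705), measured 144, 118, 115 and 212 CPM in sham and 119, 108, 89.5 and 77.7 CPM in Ang II replicates. The groups overlapped, and Axl did not pass (-0.58, SE 0.220, edgeR adjusted p = 0.362). The ligand genes Gas6 and Pros1 had values of -0.11 and 0.00454, and Tyro3, the remaining receptor, -0.40 (edgeR adjusted p = 0.914, 0.995 and 0.790).

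The remaining lists had at most 1 call in each direction. Over all genes tested 1.81% were called, and a single call is given as a value of the gene, with no result read for its list. Of 21 matrix proteases and inhibitors 1 rose and 1 fell (median -0.01), the latter being the metalloproteinase inhibitor Timp3 (-0.58, SE 0.105, edgeR adjusted p = 0.0304). Mgp, an inhibitor of calcification, was the 1 fall among 11 osteochondrogenic genes (-1.23, edgeR adjusted p = 0.0248), and Prdm16, a factor of brown fat, among 13 brown adipocyte genes (-0.93, edgeR adjusted p = 0.0106). Acvr1c, an activin receptor of fat cells, was the 1 rise among 16 general adipocyte genes (0.71, edgeR adjusted p = 0.0312), and Dnajb1, a chaperone, among 19 heat shock and chaperone genes (0.49, edgeR adjusted p = 0.0447). Timp3 kept its call under the omission of sham replicate 4 alone (edgeR adjusted p up to 0.106), Acvr1c under that of Ang II replicate 1 alone (up to 0.120), and Dnajb1 under none (up to 0.148). Mgp was lost without sham replicate 1 or Ang II replicate 2, 3 or 4 (up to 0.0957) and Prdm16 without sham replicate 1 (0.0529), and all 5 were lost without the 3 libraries highest in airway transcripts. Adventitial fibroblast genes had 0 calls of 16 and a median of 0.12, and T and NK cell, interferon and MHC class II genes had 0 calls with medians of 0.27, 0.18 and 0.69. Erythroid genes had 0 calls of 8 and a median of -1.38, at 294 to 652 CPM in sham and 135 to 257 CPM in Ang II libraries, without overlap. Circadian clock genes had 1 call of 19, Bhlhe41, a repressor of the clock (-1.06, SE 0.151, edgeR adjusted p = 0.0126), and a median of -0.42. The call was lost without Ang II replicate 3 or 4 and without the 3 libraries highest in airway transcripts (edgeR adjusted p up to 0.0797). Their summed level was 1264 to 1357 CPM in sham and 825 to 963 CPM in Ang II libraries, again without overlap. The time of day of tissue collection was not recorded in the sources used here, and its part in the result was not tested.

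The same comparison at 4 months, made in 1 fit of 16 libraries with sham libraries of its own, called 11 of 17153 genes (0.0641%), 9 higher and 2 lower. Of the 61 genes higher at 2 months 7 were also called higher at 4 months, and of the 236 lower genes 0 were called. The 7 were Wfdc17, Ms4a7, Cd68, Hpgds, Trem2, Cd300a and Heph, of which 4 are in the macrophage list. Hpgds (prostaglandin D synthase), Cd300a (an inhibitory myeloid receptor) and Heph (a ferroxidase) are outside it. At 4 months Wfdc17 was at 2.20, Ms4a7 at 2.04, Cd68 at 1.75, Trem2 at 1.54, Hpgds at 1.74, Cd300a at 1.36 and Heph at 0.48, with edgeR adjusted p from 0.000423 for Wfdc17 to 0.0436 for Cd300a. The macrophage list summed to 845, 613, 573 and 937 CPM in sham libraries at 4 months and to 1101, 1788, 1535 and 1469 CPM in the Ang II libraries, without overlap. Among the 4-month libraries airway transcripts were highest in Ang II replicates 2 and 4, at 8032 and 5321 CPM, and their part in the result was not tested. The sign at 4 months was that at 2 months for 46 of 61 higher genes (75.4%) and 176 of 236 lower genes (74.6%), against 55.9% of all genes with both values. By direction, 60.8% of all genes above 0 at 2 months and 50.7% of those below 0 kept their sign. Median log2 fold changes at 4 months were 0.38 and -0.21 for the 2 sets.

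**Figure D5:**
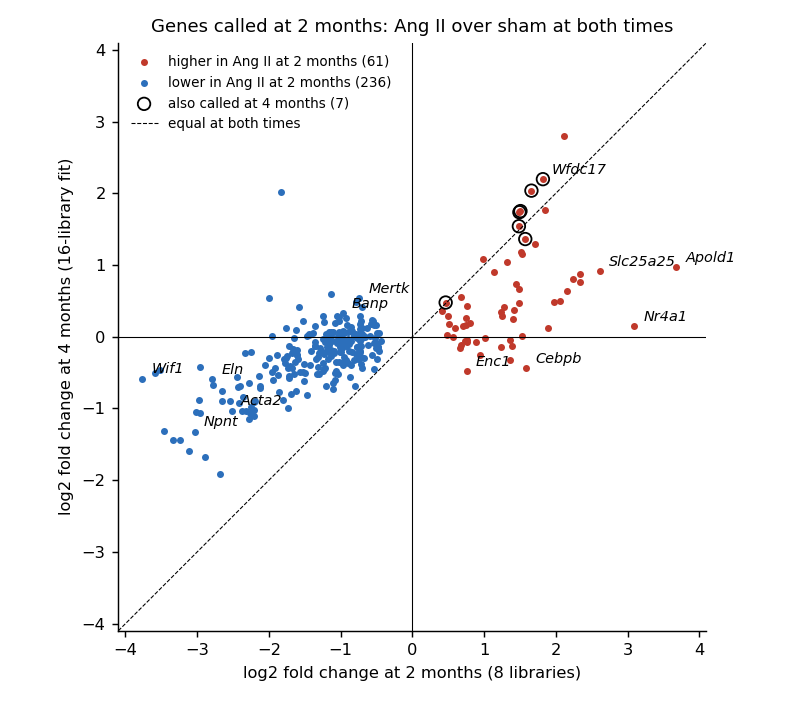
Log2 fold changes of Ang II over sham at 2 months (x axis) and at 4 months (y axis) for the genes called at 2 months, red for the 61 higher and blue for the 236 lower, with circles around the 7 also called at 4 months. Points on the diagonal line would be equal at both times, and at 4 months the blue points have a median of -0.21 and the macrophage gene Wfdc17 lies at 2.20.

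The test of the difference itself, the Ang II effect at 4 months minus that at 2 months, called 0 of 17153 genes (edgeR, 0%), and 1813 had an unadjusted p under 0.05. DESeq2 called 178 and limma voom 467, and without sham replicate 4 at 4 months edgeR called 128. Among the genes called at 2 months, 36 of 61 higher and 180 of 236 lower had an unadjusted p under 0.05 for the difference. These genes were chosen by the 2-month values that the difference subtracts. That choice favours a small p, and the counts are a description. With 0 calls, a gene called at 2 months and not at 4 months was not shown by edgeR to differ between the times. The smallest adjusted p belonged to Banp, a nuclear matrix DNA-binding protein, at 18.1 to 22.3 CPM in sham and 9.32 to 12.4 CPM in Ang II libraries at 2 months. Its log2 fold change was -0.97 at 2 months and 0.33 at 4 months (difference 1.29, SE 0.178, edgeR adjusted p = 0.0529). The next were Enc1, Lurap1, Cd9, Ramp1, Tspan2, Dlc1, Wwp2, Cd200 and Mertk, leaving out predicted genes, with edgeR adjusted p of 0.184 for Enc1 and 0.198 for the others. Cd9, a tetraspanin, had a log2 fold change of -0.70 at 2 months and 0.41 at 4 months, and Mertk of -0.75 and 0.54 in this fit (difference 1.29, SE 0.258). Contractile genes had a median of -0.55 at 4 months. For Acta2 the difference was 1.49 (SE 0.752, edgeR adjusted p = 0.506).

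The level of the sham libraries also differed between the times. With the 16 libraries scaled together, the contractile list summed to 11970, 9807, 8815 and 13930 CPM in the 2-month sham libraries and to 3621, 5876, 3034 and 6710 CPM in the 4-month sham libraries. In Ang II libraries it summed to 4650, 3890, 5289 and 3590 CPM at 2 months and 3420, 3076, 3012 and 3826 CPM at 4 months. All 4-month libraries of both groups thus lay below the 2-month sham libraries. In 181 of the 236 genes lower at 2 months (76.7%) every 4-month sham library was below every 2-month sham library, against 5.98% of all genes. The median log2 ratio of 4-month to 2-month sham was -1.14 for these genes, beside -1.17 for Ang II over sham at 2 months. For the 61 higher genes the median ratio of the sham groups was 0.26. These genes were chosen with the same 2-month sham libraries, so the values are a description and no test was made. Time after infusion and the handling of each set of libraries cannot be told apart.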

How the data were processed

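RNA from aortic homogenates (1.3 ug of total RNA, RNeasy mini plus and SMARTER mRNA-seq kits, per the labels' protocols) was sequenced, and the authors deposited a table of read counts for 37606 genes in 24 libraries. Per the submitters' processing notes FastQC, cutadapt, STAR, featureCounts, DESeq2 and mm10 were used. Versions, annotation release, strand setting and filters were not found in the sources used here. For this comparison the authors' deposited table holds 18740 genes with log2 fold changes and adjusted p-values, 745 of them under 0.05, and its count columns equal the count table. It served for symbols and as a check, and the 297 genes called here had the same sign in it. Symbols came from it and, for genes it lacks, from the GENCODE annotation.

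Counts were tested with edgeR 4.0.16 (R 4.3.3): low genes were dropped with filterByExpr (at a minimum count of 10 and a minimum total of 15), TMM factors scaled the libraries, and quasi-likelihood F tests were made with Benjamini-Hochberg adjustment and a threshold of 0.05. The standard error is the absolute log2 fold change divided by the square root of F. The Ang II effect at 4 months was compared with that at 2 months by the interaction in 1 model over 16 libraries, and the 6-month libraries were not used. The parts of library spread and of counting error in the precision were not tested for single genes. Replicates of a group were different libraries: their counts differed by 38.4 to 167.4 chi-square units per degree of freedom. The test was checked on simulated data. Alternatives were DESeq2 1.42.0 and its size factors, limma 3.58.1 voom with quality weights, other filters, a replicate block, a fit over 16 libraries, a fold threshold, each library left out, and, added after seeing the data, the 3 libraries highest in airway transcripts left out.

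Named are the 12 higher and 12 lower called genes with the smallest p and a mean of at least 1 CPM, up to 4 called members of each list with the smallest p, the 10 genes with the smallest p for the difference between times, and 15 genes always given. Predicted genes (Gm and Rik symbols) are counted and not named, and the next gene in rank takes their place. Other genes, such as Cnn1, Myl9, Tagln, Myocd, Fbln5, Ctgf, Wisp2, Itga8, Sik1, Irf4, Irs2, Arc, Hpgds, Cd300a and Heph, were chosen after their values were seen. The comparison, its members and the 44 gene lists were chosen with earlier results of these data known. The member of the matrix protease list that rose is not reported by name here.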

Additional observations from a re-analysis of the deposited data

Results flagged for a closer look

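In 16 of 280 groups of 4 libraries 1 library stood far from the other 3, where chance alone gives about 14. Among genes, Ang II replicate 1 was the far library for Acta2 (823.9 CPM), Vcan (12.51 CPM), Trem2 (9.732 CPM), Gas6 (260.7 CPM), Fos (108.9 CPM) and Cd200 (65.6 CPM), each time as the highest. Cebpb was far highest in Ang II replicate 4 (438.5 CPM) and Tgfb2 far lowest in sham replicate 2 (14.84 CPM).

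Among summed gene lists, sham replicate 4 was far highest for osteochondrogenic genes (995.3 CPM), renin, angiotensin and kinin genes (399.4 CPM), ATF4 stress genes (2066 CPM) and fatty acid synthesis genes (56990 CPM). Sham replicate 2 was far highest for T and NK cell genes (243.6 CPM) and cell cycle genes (158.9 CPM). Sham replicate 3 was far highest for airway epithelium genes (11750 CPM), and Ang II replicate 1 for neutrophil and mast cell genes (97.43 CPM).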

How the results depend on the processing

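The 2-month count of 297 was 691 with DESeq2, 629 with limma voom, 192 where a fold of at least 2 was also asked for, and 119 without the 3 libraries highest in airway transcripts, which leaves fewer samples. Leaving out single libraries gave 78 to 255. It was 310 with DESeq2 size factors, 287 with no filter, 278 with a mean count of at least 5 and 323 in the 16-library fit. Of 111 called genes followed in 16 settings, 30 stayed called in each and 0 changed sign.

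The samples were not treated as paired by replicate number, and the labels do not say what the numbers mean. The correlations of the deviations of same-numbered libraries were -0.172, 0.491, -0.269 and 0.095. Not every library correlated best with its own number, though those numbered 2 did. Libraries also differed in other tissue, so these values cannot exclude a pairing. With the replicate number as a block, 208 genes were called.

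The test of the difference between times, with 0 calls, gave 1 with DESeq2 size factors or a mean count of at least 5, 178 with DESeq2, 467 with limma voom and 0 to 128 with single libraries left out. The cause was not tested.

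Pros1, at 0.00454, turned to -0.00387 with DESeq2 size factors, -0.0054 with DESeq2, -0.07 with limma voom, and lay between -0.0355 and 0.0477 with single libraries left out. Fos and Egr1 turned to -0.47 and -1.21 without the 3 libraries highest in airway transcripts. The parts of library spread and of depth in what could be called were not tested.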

Other observations

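Further genes known from myeloid cells rose at 2 months outside the macrophage list. They were chosen after their values were seen and are given as values. Cd300a, an inhibitory receptor, measured 2.63, 3.08, 2.31 and 2.96 CPM in sham and 6.05, 10.5, 8.41 and 7.67 CPM in Ang II replicates (log2 fold change 1.57, edgeR adjusted p = 0.0110). Cd33, a sialic acid-binding receptor, Clec4n, a C-type lectin also called dectin-2, and Ptafr, the receptor of platelet-activating factor, had log2 fold changes of 1.52, 1.71 and 1.14 (edgeR adjusted p = 0.0260, 0.0429 and 0.0376). Hpgds measured 2.16 to 3.61 CPM in sham and 5.20 to 9.62 CPM in Ang II libraries (log2 fold change 1.49, edgeR adjusted p = 0.0240). All of these levels were low, and the calls of Cd33, Clec4n, Ptafr and Hpgds did not hold under each omission of a library (highest edgeR adjusted p 0.1, 0.159, 0.147 and 0.0922), nor did that of Cd300a (0.0547).

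Itih2, a hyaluronan-binding protein chosen after its values were seen, had log2 fold changes of opposite sign at the 2 times. It measured 4.91 to 8.11 CPM in sham and 1.05 to 2.78 CPM in Ang II libraries at 2 months (log2 fold change -1.83, edgeR adjusted p = 0.0352). At 4 months its log2 fold change was 2.01 and did not pass (edgeR adjusted p = 0.226). The edgeR test of the difference between the times did not call it, so a reversal was not shown.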
